A study of Mus musculus with 4 samples.

Results

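The genes described here were Gm12794, Pramel6, Pramel7, Pramef12, Dub1, Dub1a and Gm8994, a set labelled as PRAME-like and deubiquitinase genes of the 2-cell embryo. They were taken by symbol from the expression tables of mouse embryonic stem cells and are 7 of the 22492 gene symbols listed. Each had 1 row in both tables. They had been chosen for their RNA levels in the same libraries, so every RNA value of the 7 genes is a description and carries no test. The label held for 6 genes only. Gm12794, Pramel6, Pramel7 and Pramef12 belong to the PRAME family, and Dub1 and Dub1a to the USP17 family of deubiquitinases. Gm8994 is named Eif4a3l1 in RefSeq, a relative of the RNA helicase gene Eif4a3, and is neither.

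The study profiled the E14Tg2a mouse embryonic stem cell line as unmodified cells (WT) and after loss of the DNA dioxygenases Tet1, Tet2 and Tet3 (TetTKO), enzymes that oxidise 5-methylcytosine and so start its removal. Each genotype gave 1 whole-genome bisulfite library and 1 RNA-seq library, 4 libraries in all, so no difference below has a replicate check and no p-value is given. The knockout was made in 2i medium by transient transfection of px330 CRISPR vectors with guides for all 3 genes and a puromycin resistance vector, after which resistant clones were picked and screened. WT and TetTKO cells shared the E14Tg2a background, and both were kept for at least 17 days in serum medium with LIF before harvest. How many clones the TetTKO libraries hold is not given in the sources used here, and no second knockout line or rescued line was analysed here.

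PRAME proteins are built of leucine-rich repeats, and several of them serve as receptors that bring a target protein to a Cullin-2 ubiquitin ligase. Their mouse genes form large, recently expanded clusters that are used mainly in germ cells and the early embryo. USP17 proteins remove ubiquitin from other proteins, and their genes are also a young tandem family. Genes of both families are switched on when the embryonic genome is first transcribed at the 2-cell stage, and again in the rare cells of a stem cell culture that pass through a 2-cell-like state marked by Zscan4. Copies in such families resemble each other so closely that a short read can fit more than 1 of them.

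RNA was given as FPKM, a fragment count corrected for the length of the transcript and the size of the library, rounded to 2 decimals. Differences are given as the plain ratio and as log2((TetTKO + 1)/(WT + 1)), where the added 1 FPKM understates the change of low genes. A gene counted as expressed at 1 FPKM or more in either library. Tet1 had 15.06 FPKM in WT and 4.36 in TetTKO, Tet2 14.86 and 4.13, and Tet3 0.32 and 0.27. A gene total cannot show a small CRISPR deletion, so these values check the labels only in part. The WGBS libraries gave 132794183 and 150132176 read calls over 14323377 CpGs. The mean CpG methylation was 69.5% in WT and 65.0% in TetTKO.

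Of the PRAME genes, Gm12794 (Pramel19 in RefSeq, mm9 chr4:101613012-101615788) was the furthest apart between the libraries. It had 1.02 FPKM in WT and 10.18 in TetTKO, a plain ratio of 9.98 and a log2 difference of 2.47. TetTKO was therefore the high library, and WT lay just over the limit of expression. The 250 bases upstream of its start (GRCm38.p6 chr4:101940157-101940406, plus strand, RefSeq, 5′ to 3′) are shown because the CpGs there, in capitals here and in the sequences of Pramel7, Pramef12 and Gm8994, are where methylation could be read at the promoter.
Gm12794: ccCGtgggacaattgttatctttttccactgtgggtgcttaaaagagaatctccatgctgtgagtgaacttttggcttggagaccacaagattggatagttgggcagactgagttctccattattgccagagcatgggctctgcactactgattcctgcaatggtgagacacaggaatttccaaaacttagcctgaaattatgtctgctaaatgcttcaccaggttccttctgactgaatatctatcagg

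Pramel7 and Pramel6 are neighbours on chromosome 2. Pramel7 is known from the inner cell mass of the blastocyst, where its protein directs the maintenance methylation factor UHRF1 to degradation, and both genes are linked to the ground state of pluripotency. Pramel7 (mm9 chr2:87329245-87332575) had 0.74 FPKM in WT and 2.33 in TetTKO, a ratio of 3.15 and a log2 difference of 0.94. Pramel6 (mm9 chr2:87348615-87351022) had 0.56 and 1.49 FPKM, a ratio of 2.66 and a log2 difference of 0.67. TetTKO was the high library for both, but both stayed near the limit of expression, and neither reached 2-fold once 1 FPKM was added. With 0.1 FPKM added instead, both passed 2-fold, at 1.53 for Pramel7 and 1.27 for Pramel6. Their intervals lie 16039 bp apart, and together they held 1.3 FPKM in WT and 3.82 in TetTKO, a ratio of 2.94. The promoter of Pramel7 (GRCm38.p6 chr2:87492419-87492668, minus strand) holds a single CpG.
Pramel7: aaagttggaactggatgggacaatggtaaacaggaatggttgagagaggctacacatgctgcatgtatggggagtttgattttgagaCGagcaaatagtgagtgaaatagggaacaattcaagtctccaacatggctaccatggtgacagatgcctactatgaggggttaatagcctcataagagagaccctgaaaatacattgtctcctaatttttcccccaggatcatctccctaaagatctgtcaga

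Pramef12 (Pramel13 in RefSeq, mm9 chr4:143981577-143998367), a gene needed to maintain spermatogonial progenitors, had the smallest difference of the set. It had 12.38 FPKM in WT, the highest WT level of the set, and 14.24 in TetTKO. The ratio was 1.15 and the log2 difference 0.19. It was thus expressed in both lines at levels that differed little, and the difference was far from 2-fold. Its promoter (GRCm38.p6 chr4:144408465-144408714, minus strand) is the richest in CpGs of the set and is shown for the methylation values at this start.
Pramef12: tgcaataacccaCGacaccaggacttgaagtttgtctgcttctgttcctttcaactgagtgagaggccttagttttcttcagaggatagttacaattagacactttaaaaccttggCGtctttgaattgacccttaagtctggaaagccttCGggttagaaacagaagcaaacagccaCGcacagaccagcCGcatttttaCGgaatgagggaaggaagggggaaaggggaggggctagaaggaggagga

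The deubiquitinase genes Dub1a and Dub1 encode cytokine-inducible enzymes that were first described in blood cells. Dub1a (Usp17lb in RefSeq, mm9 chr7:111988826-111991018) had 0.66 FPKM in WT and 7.5 in TetTKO, a ratio of 11.4 and a log2 difference of 2.36. Dub1 (Usp17la in RefSeq, mm9 chr7:112005530-112011181) had 0.22 and 1.59 FPKM, a ratio of 7.23 and a log2 difference of 1.09. TetTKO was the high library for both, and both lay under 1 FPKM in WT. With 5 FPKM added, the difference of Dub1 was only 0.34. The intervals lie 14511 bp apart. Their sum was 0.88 FPKM in WT and 9.09 in TetTKO, a ratio of 10.3. FPKM is corrected for transcript length and other copies exist, so the sum does not remove the effect of shared reads. The promoters of Dub1 (GRCm38.p6 chr7:104856766-104857015, plus strand) and Dub1a (chr7:104842584-104842833, minus strand) are shown to make the likeness of the copies visible, with capitals for the longest run that they have in common, 47 bases.
Dub1: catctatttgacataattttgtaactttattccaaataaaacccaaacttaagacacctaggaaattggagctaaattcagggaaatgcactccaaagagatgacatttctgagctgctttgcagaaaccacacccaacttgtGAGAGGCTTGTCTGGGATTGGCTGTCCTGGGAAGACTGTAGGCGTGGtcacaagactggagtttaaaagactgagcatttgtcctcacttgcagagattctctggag
Dub1a: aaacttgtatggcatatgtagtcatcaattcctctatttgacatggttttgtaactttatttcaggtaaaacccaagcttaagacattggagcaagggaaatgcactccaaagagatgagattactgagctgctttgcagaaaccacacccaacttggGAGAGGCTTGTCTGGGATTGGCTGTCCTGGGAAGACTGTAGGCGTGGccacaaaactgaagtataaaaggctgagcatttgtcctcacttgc

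Gm8994 (mm9 chr6:136277557-136280001) is the helicase relative. It had 2.65 FPKM in WT and 19.8 in TetTKO, a ratio of 7.47 and a log2 difference of 2.51. It had the highest TetTKO level of the set, and TetTKO was again the high library. Chromosome 6 as a whole moved the other way: its 309 genes with 5 FPKM or more in both libraries had a median log2 difference of -0.52, and its CpG coverage was 1.34 times that of the median autosome in WT and 0.982 times in TetTKO. Set against that median, Gm8994 stood at 3.03. The part of chromosome 6 in this value was not tested. The upstream bases (GRCm38.p6 chr6:136327289-136327538, plus strand) hold 2 CpGs.
Gm8994: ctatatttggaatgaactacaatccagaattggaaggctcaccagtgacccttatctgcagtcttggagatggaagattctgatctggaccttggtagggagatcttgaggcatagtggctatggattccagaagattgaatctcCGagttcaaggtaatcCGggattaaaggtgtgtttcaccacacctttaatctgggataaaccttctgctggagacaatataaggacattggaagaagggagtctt

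Reads of the parent family could in principle reach Gm8994, so its relatives were looked up after the values had been seen. Eif4a3, the exon junction complex helicase, had 217.58 FPKM in WT and 269.82 in TetTKO, a log2 difference of 0.31. Eif4a1 had 1634.69 and 1686.38 FPKM, and Eif4a2 230.13 and 259.15. All 3 were far more abundant than Gm8994 in both libraries, and none differed as it did. Whether reads of Eif4a3 were counted at Gm8994 was not tested.

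**Figure D1:**
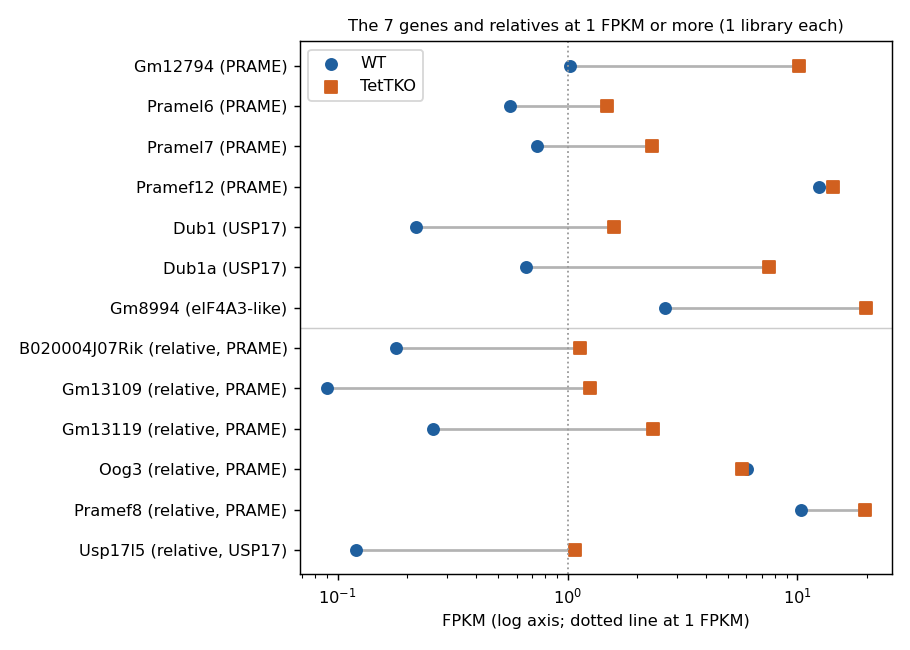
FPKM of the 7 genes and of every PRAME or USP17 relative found by name with 1 FPKM or more, on a log axis. Circles are WT and squares TetTKO, with 1 library each. The squares of Gm12794, Dub1a and Gm8994 lie between 7.5 and 19.8, while Pramef12 and Oog3 have both symbols close together.

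In number, 4 of the 7 genes passed 2-fold upward in TetTKO on the log2(FPKM + 1) scale, against 1.77% of the 10978 genes with 1 FPKM or more in either library. None was 2-fold lower, against 0.847% of those genes. Since the genes were chosen on this comparison, nothing is read from these shares. The median of the 7 genes was 1.09, and that of all genes -0.0076. Only Gm12794, Gm8994 and Pramef12 reached 1 FPKM in WT. The other 4 genes passed through TetTKO alone and could only be higher. Of the 3 genes with 1 FPKM or more in WT, 2 were at least 2-fold higher, against 1.27% of the 10452 genes with that level in WT. Among the 526 genes that passed through TetTKO alone, the share was 11.6%. Ranked from the top among the 10978 genes, Gm8994 was 4, Gm12794 6, Dub1a 8, Dub1 153, Pramel7 232, Pramel6 543 and Pramef12 2869.

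**Figure D2:**
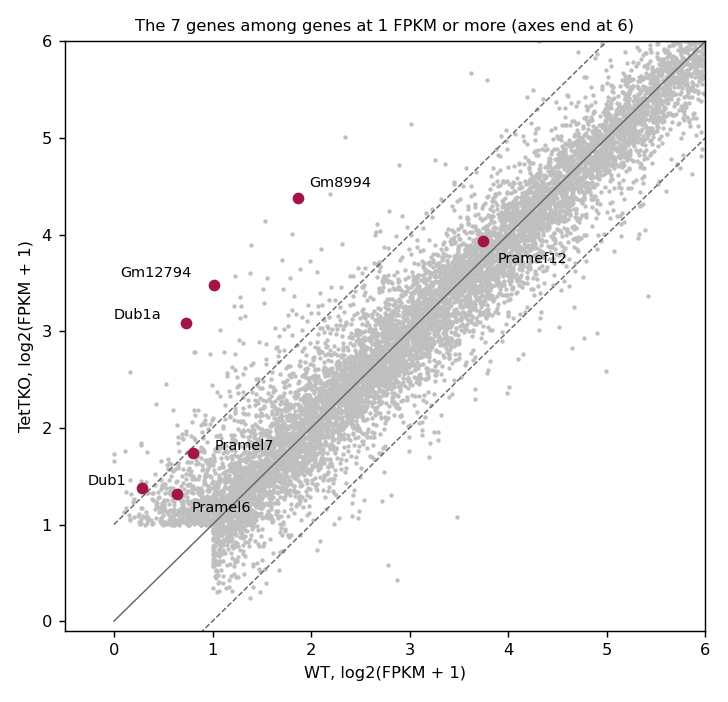
Each point is a gene with 1 FPKM or more in either library, by log2(FPKM + 1) in WT (x axis) and TetTKO (y axis), with the solid line at equal levels, dashed lines at a 2-fold difference and the 7 genes in dark red. Gm8994, Gm12794 and Dub1a lie well above the upper dashed line, Dub1 just above it, Pramel7 and Pramel6 just below it, and Pramef12 next to the line of equal levels.

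Most genes of the members' wider families were under 1 FPKM in both libraries. PRAME relatives were found by a symbol or synonym that begins with Prame or Oog, so family members under other names would be missed. Of the 30 found in this way, 25 were under 1 FPKM in both libraries, with no value above 0.76, and 5 were expressed. Over all genes, 11506 of 22484 were under 1 FPKM in both. Since similar copies can lose shared reads, a low value does not show that the RNA was absent. Gm13119 (Pramel31) had 0.26 FPKM in WT and 2.36 in TetTKO, a log2 difference of 1.42. Gm13109 (Pramel16) had 0.09 and 1.25 FPKM, a difference of 1.05. These were the 2 relatives that were 2-fold higher, and none was 2-fold lower. Over all expressed genes the shares were 1.77% and 0.847%. Among all genes that passed through TetTKO alone, 11.6% were 2-fold higher. B020004J07Rik (Pramel17) had 0.18 and 1.13 FPKM, a difference of 0.85. Like Gm13119 and Gm13109, it passed through TetTKO alone and could only be higher. The other 2 relatives were already expressed in WT. Pramef8 (Pramel12) had 10.42 and 19.66 FPKM, a log2 difference of 0.86. Oog3, an oocyte-expressed PRAME gene, had 6.04 and 5.74 FPKM, a difference of -0.06. The median of the 5 was 0.86. With 5 FPKM added, 0 of the 5 were 2-fold higher, and with 0.1 FPKM added the median was 2.14.

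Of the 3 other USP17 genes found by name, 1 was expressed. Usp17l5 (Usp17lc) had 0.12 FPKM in WT and 1.08 in TetTKO, a log2 difference of 0.89 at the limit of expression. With 0.1 FPKM added, the difference was 2.42. Dub2a (Usp17ld) was listed at 0 in both libraries. Since near-identical copies can take or lose all shared reads, a value of 0 at Dub2a does not show that its RNA was absent.

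Other 2-cell-stage genes were listed with the results of the same libraries known, so their direction is not independent evidence. The list shares 2 genes, Usp17l5 and Dub2a, with the USP17 relatives and 1, D5Ertd577e, with the PRAME relatives. Of 42 symbols 36 were in the tables and 19 were expressed. Of these 19 genes 16 passed 2-fold upward in TetTKO and 0 downward, against 1.77% and 0.847% of all expressed genes. Their median was 1.59. The highest were Gm2022 (3.56 and 20.48 FPKM), Gm8300 (2.51 and 15.06) and Gm5039 (1.62 and 13.89). Zscan4d, a zinc finger gene of telomere maintenance that marks 2-cell-like cells, had 1.35 and 10.86 FPKM. Dux, the transcription factor that opens the 2-cell programme, had 0.12 and 1.76 FPKM. Only 8 of the 19 had 1 FPKM or more in WT, and 7 of those were 2-fold higher, against 1.27% of all genes with that level in WT. The other 11 passed through TetTKO alone and could only be higher. Among all genes that passed in this way, 11.6% were 2-fold higher. With 5 FPKM added, 7 of the 19 were 2-fold higher, and without the limit of expression the median of all 36 was 0.81.

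The ubiquitin machinery that PRAME and USP17 proteins work with was expressed in both libraries. Of 14 genes for CUL2 ligase parts, UHRF1 and their partners, all were expressed and 0 differed 2-fold in either direction, with a median of 0.04. Over all expressed genes 1.77% were 2-fold higher and 0.847% lower. A count of 0 of 14 is near those shares, and nothing particular to these genes is read from it. Tceb2, the Elongin B adaptor, had 319 FPKM in WT and 337 in TetTKO. Nedd8, the modifier that activates cullins, had 248 and 249 FPKM, and Rnf7, a RING subunit, 130 and 127. Cul2 itself had 27.0 and 31.2 FPKM. Uhrf1, whose protein is the PRAMEL7 target, had 109 and 71.8 FPKM, a log2 difference of -0.60, while Dnmt1 had 59.8 and 65.8. Uhrf1, Cul2 and Dnmt1 are named for their roles after their values were seen.

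Of 50 other ubiquitin-specific protease genes, 43 were expressed and 0 differed 2-fold once 1 FPKM was added, with a median of 0.05. That count, too, is near the shares of all expressed genes, 1.77% higher and 0.847% lower. Usp7, the protease that stabilises UHRF1, had 94.6 FPKM in WT and 106 in TetTKO. Usp5 had 113 and 67.5, and Usp39, a splicing factor, 84.4 and 57.8. By the plain ratio, without the added FPKM, Usp20 (1.59 and 0.71 FPKM) was 2.24-fold and Usp26 (1.07 and 0.51) 2.10-fold lower in TetTKO, and both were named after their values were seen.

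Marker genes of cell states were read in the same libraries. The embryonic stem cell markers summed to 6239 FPKM in WT and 6166 in TetTKO over 10 of 10 expressed genes, none of them 2-fold apart. The defining markers of the labelled cell type were thus present in both lines. That none was 2-fold apart is near the shares of all expressed genes, 1.77% higher and 0.847% lower. The sums hide differences in both directions, with 6 markers lower in TetTKO and 4 higher. Esrrb, with 49.32 and 26.43 FPKM, had the largest log2 difference of the 10. All 7 expressed 2-cell-like markers of 11 passed 2-fold upward, against 1.77% of all expressed genes. The list summed to 12.24 and 77.79 FPKM, with Tcstv1 and Tcstv3 listed at 0 in both. All 11 of these markers are also in the list of other 2-cell-stage genes. Primitive endoderm markers summed to 2.84 and 9.74 FPKM over 7 genes, of which 5 were expressed, all through TetTKO alone, and 1, Pdgfra (0.73 and 3.16 FPKM), was 2-fold higher. Among all genes that passed through TetTKO alone, 11.6% were 2-fold higher. Fibroblast markers summed to 2.34 and 3.52 FPKM with 1 of 9 expressed, and blood cell markers to 1.6 and 2.45 FPKM with 1 of 8 expressed and the globin genes Hbb-b1 and Hba-a1 at 0 in both. In bulk RNA, more cells in a 2-cell-like state and more RNA per cell cannot be told apart. The part of the 2-cell-like and primitive endoderm markers in the values of the 7 genes was not tested.

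Genes of similar level were found by distance from the members' median point (0.799 in WT and 3.09 in TetTKO) in the plane of log2(FPKM + 1), over 2 libraries. The point takes the median of each library separately. Its 2 levels lie further apart than the members' median log2 difference of 1.09, so genes near it resemble the point and not each member. The nearest 5 genes outside the set were Gm4971 (1.11 and 7.09 FPKM, distance 0.287), Gm5662 (0.75 and 5.9, distance 0.301), Sall2 (0.77 and 5.9, distance 0.302), Gm2016 (0.97 and 5.81, distance 0.367) and Sycp1 (1.17 and 5.87, distance 0.443). Gm5662 and Gm2016 are also on the list of other 2-cell-stage genes. Sycp1 encodes a structural protein of the meiotic synaptonemal complex, and Sall2 a zinc finger transcription factor.

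Neighbouring genes within 200 kb were mostly not expressed. Dub1, Dub1a, Pramel6 and Pramel7 lie among olfactory receptor genes, 32 in all, of which 0 reached 1 FPKM and the highest value was 0.25. Of the 3 neighbours of Gm12794, the nearest, Gm12789, had 0.15 and 0.42 FPKM, and only the PRAME gene B020004J07Rik was expressed. Of the 10 neighbours of Pramef12, only the PRAME gene Gm13119 was expressed, and the nearest, 1700012P22Rik, was listed at 0 in both libraries. Gm8994 had 3 neighbours, and the nearest, E330021D16Rik, had 4.26 FPKM in WT and 4.25 in TetTKO. Atf7ip, the other expressed neighbour of Gm8994, had 4.11 and 3.98 FPKM and was named after its values were seen.

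Promoter sequences were taken from RefSeq (GRCm38.p6), where all 7 genes were found, 5 of them under a newer symbol. The windows run from 250 bases before to 50 after the gene start. CpGs were sparse: 6 of the 7 windows held at most 3 CpGs, which 31.4% of all 32851 RefSeq windows of that length do, and Pramef12 held 7, the median of all windows. The motif TATAAA, searched on both strands, was found in 1 of the 7 windows, that of Dub1a at position -31, and in 13.6% of all windows.

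The methylation tables use mm9, so listed CpGs were matched to the promoter letters printed above by their distance from the gene start. For 5 genes all 11 listed CpGs of the window fell on a CpG of the sequence. Methylation is given as methylated reads of all reads. The single upstream CpG of Gm12794, at position -248, had 6 of 8 in WT and 9 of 12 in TetTKO. That of Pramel7, at -163, had 4 of 7 and 7 of 9. In Gm8994 the CpG at -105 had 8 of 9 and 7 of 7. The CpG at 40 in Gm8994 had 0 of 9 and 0 of 10. These starts thus offered only 1 or 2 measured CpGs each, mostly methylated in both lines, with the exception of the CpG just inside Gm8994. Other single CpGs inside Gm8994 also read 0 in both lines beside well methylated ones. Examples are mm9 chr6:136278583, with 0 of 16 in WT and 0 of 9 in TetTKO, and chr6:136278797, with 0 of 15 and 0 of 12. Whether the cell line carries a CpG at such places was not tested.

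Pramef12 had the densest promoter and 6 measured CpGs in it. The outermost, at -238, had 6 of 9 methylated reads in WT and 9 of 14 in TetTKO. At -134 the reads were 1 of 6 in both lines. At -99 they were 0 of 6 in WT and 1 of 8 in TetTKO, and at -72 they were 0 of 5 and 1 of 7. At -59 and at -49 they were 0 of 6 in both lines. The CpGs closest to the start were therefore unmethylated or nearly so in WT and in TetTKO, at 5 to 8 reads each.

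Over 270 aligned bases the windows of Dub1 and Dub1a were 92.2% identical. Dub1 was closer still to the promoters of Usp17l5, at 95.3% over 257 aligned bases, and of Dub2a, at 96.6% over 235. The longest run shared with Usp17l5 was 49 bases and with Dub2a 76 bases, all shorter than the 110 bp bisulfite reads. These runs were counted in unconverted letters, and bisulfite turns unmethylated C into T. They therefore cannot show whether the reads tell the copies apart. How reads were shared between these copies was not tested. The 1 upstream CpG of Dub1, at -65 and inside the capitals, had 7 of 9 methylated reads in WT and 9 of 12 in TetTKO. For Dub1a, where the RefSeq and mm9 gene models differ in length, no listed CpG could be matched. By contrast, the windows of Gm12794 and Pramel7, which lie on different chromosomes, were 67.5% identical over 271 aligned bases, with no shared run longer than 10 bases.

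Methylation of the gene bodies was high and lower in TetTKO for most of the set. Values are means over CpGs with 5 or more reads in both libraries, and difference intervals are 95% intervals of pooled read calls that cover counting error only. Pramef12 held 33.4% in WT and 36.7% in TetTKO over 100 CpGs, whereas the other 6 gene intervals held 74.8% to 86.1% in WT and 68.7% to 78.8% in TetTKO. In 6 of 7 intervals (85.7%) the mean was lower in TetTKO, against 69.1% of 21408 gene intervals with at least 5 CpGs. In Pramef12 it was higher, against 30.8% of those intervals. The median difference was -4.46 percentage points, and -3.02 over all of those genes. Lower methylation in TetTKO was also the usual direction of gene intervals in the genome, and the difference from the genome's share was not tested.

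The gene bodies differed in how firmly they could be measured. Gm8994 had 83.3% and 78.8% over 68 CpGs, and the difference interval ran from -8.76 to -1.72 points. Relative to the mean difference of its own chromosome, Gm8994 lay 0.486 points higher, Gm12794 1.59 and Dub1a 1.86, so the direction of these 3 gene bodies depended on the reference. Dub1 had 77.3% and 68.7% over 21 CpGs, with an interval from -21.8 to -2.98. For the other 5 gene bodies the interval included 0. Gm12794 had 75.9% and 73.6% (11 CpGs), Pramel6 83.1% and 76.4% (10 CpGs) and Pramel7 86.1% and 77.7% (17 CpGs). Dub1a rested on 7 CpGs, with 74.8% and 73.0%, and pooled over reads it was 73.6% and 74.6%, which turns the sign. Its difference was not detectable at this depth.

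**Figure D3:**
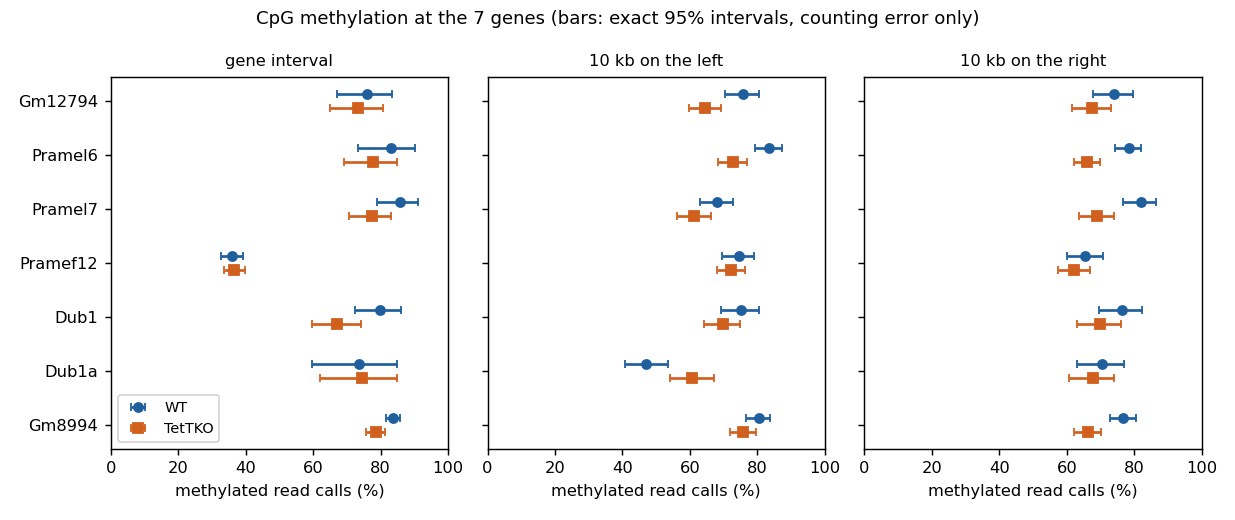
Share of methylated read calls pooled over CpGs, in percent, for the gene interval and the 10 kb on each side of the 7 genes, with circles for WT, squares for TetTKO and bars for exact 95% binomial intervals (counting error only). Pramef12 stands apart in the gene interval at 35.9% and 36.5%, and the left side of Dub1a is the one flank where the TetTKO square lies to the right of the WT circle.

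The 10 kb on either side of the genes were also lower in TetTKO for 6 of 7 genes, against 73.2% of the flanks of 22272 genes. Pramel6 had 81.1% in WT and 68.2% in TetTKO over 102 CpGs, and the interval of the difference ran from -15.7 to -7.89 points. With flanks of 5 kb its difference was smaller, at -7.06 points, and that of Dub1 was -11.1. Gm8994 had 79.8% and 69.9% and Pramel7 75.1% and 65.2%, a difference of -9.92 points for both. Gm12794 had 75.7% and 67.6%, and Dub1 75.7% and 69.3%. Pramef12 had 68.7% and 66.3%, with an interval from -7.36 to 1.91. The median over the 7 genes was -8.11 points, and -2.94 over all genes. The flanks of Pramel6 and Pramel7 share 3961 bp and those of Dub1 and Dub1a 5489 bp, so the 7 values are not independent.

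Dub1a was the exception. Its flanks had 54.8% in WT and 62.7% in TetTKO over 46 CpGs, 7.87 points higher, with an interval from 0.836 to 13.9. A higher value in TetTKO was found for the flanks of 26.8% of all genes. The left side, which lies downstream of the gene by the RefSeq strand, had 41.9% and 59.2% over 27 CpGs. The right side had 73.2% and 67.6%. Within the left side, 15 CpGs in 353 bp (mm9 chr7:111981913-111982265), 6560 bp from the gene, had 14.5% in WT and 50.3% in TetTKO. Pooled calls were 17 of 117 in WT and 49 of 99 in TetTKO, with exact 95% intervals of 8.70% to 22.2% and 39.3% to 59.7%. Of the 15 CpGs, 12 were higher in TetTKO, 1 lower and 2 equal, and 6 were at 0 in WT. The other 12 CpGs of that side had 76.2% and 70.3%. Coverage was 7.80 and 6.60 reads per CpG in the cluster. Its CpG positions 111981913, 111981925, 111981929 and 111981958 recur with equal spacing as 111982113, 111982125, 111982129 and 111982158. The stretch may therefore be repeated sequence, and its letters were not read. The part of reads from other copies in the values of the cluster was not tested. With flanks of 5 kb, which do not reach the cluster, the left side had a difference of -5.77 points, and with flanks of 20 kb one of -7.26 points, and for both sides together the values were -11.1 and -8.01. The cluster was picked out after its values had been seen.

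In fixed windows of 1 kb with at least 5 CpGs, 48 of the 61 windows over the 7 genes and their flanks (78.7%) were lower in TetTKO, against 72.1% of 1223928 windows. The difference reached 30 points in 1 window, at mm9 chr7:111981000-111981999 beside Dub1a, with 14.2% in WT and 64.8% in TetTKO over 5 CpGs. These 5 CpGs belong to the cluster described above, with the same limit on its reads. Genome-wide, 0.67% of windows were that much higher and 0.638% that much lower. Of the 9 windows under 30% in WT, 7 belonged to Pramef12 and 2 to Dub1a. Among all 64252 such windows, 7.36% were at least 30 points higher. The other low window of Dub1a had 22.4% and 46.2% over 11 CpGs, and the low windows of Pramef12 stayed within 30 points.

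Pramef12 held most of the low windows, and its methylation differed by place. The first 300 bases of the gene had 2.38% in WT and 33.2% in TetTKO over 6 CpGs, all 6 of them higher in TetTKO and 5 of them at 0 in WT. Pooled calls were 1 of 43 in WT and 24 of 68 in TetTKO, with exact 95% intervals of 0.0589% to 12.3% and 24.1% to 47.8%. The 250 upstream bases, shown above, had 13.9% and 18.0% over 6 CpGs. Beyond the first 300 bases, up to 2 kb inside, the values were 33.0% and 35.1% over 11 CpGs. From 2 to 6 kb inside, 42 CpGs had 9.55% and 12.3%, and 25 of them were at 0 in each library. The rest of the gene had a mean of 62.5% in both over 41 CpGs. That mean takes in a low window at mm9 chr4:143986000-143986999, with 11.1% in WT and 26.4% in TetTKO over 6 CpGs. The RNA of the gene, for comparison, differed by a ratio of 1.15. The stretches were chosen after their values had been seen. For all 1266 genes with 30% to 40% in WT the median difference of the whole interval was 2.57 points.

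**Figure D4:**
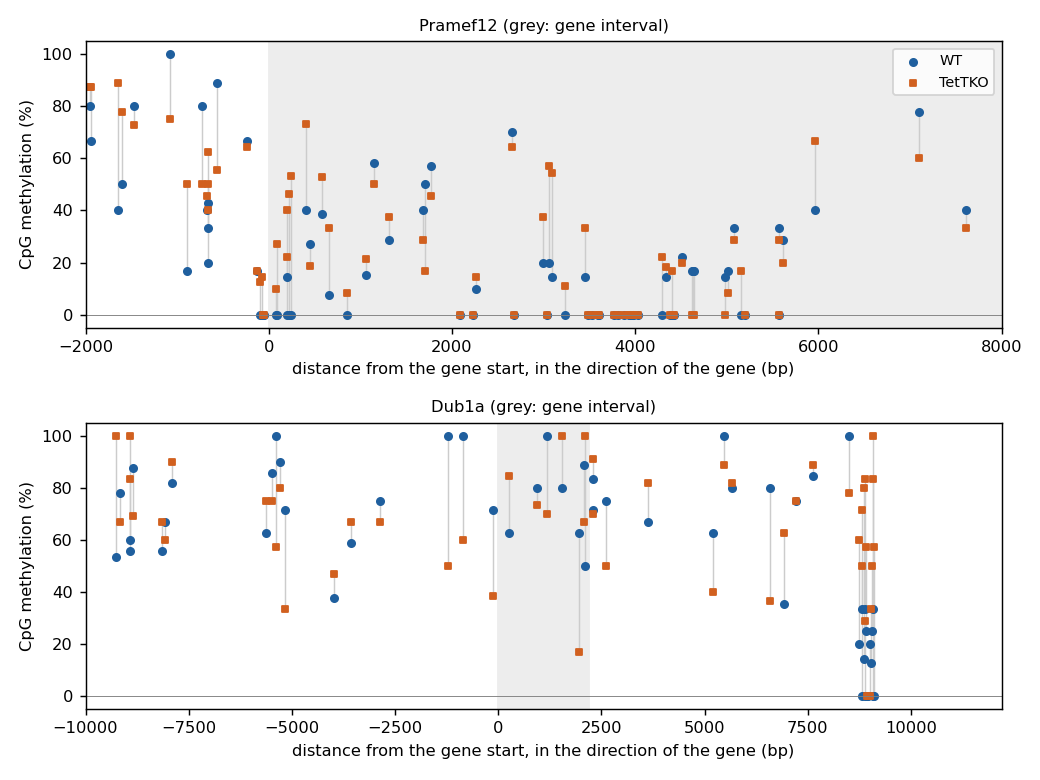
Methylation of single CpGs, in percent, by distance from the gene start in the direction of the gene, for Pramef12 (top) and Dub1a (bottom), with circles for WT, squares for TetTKO, grey lines joining the same CpG and grey shading for the gene interval. In Pramef12 the CpGs of the first 300 bases are near 0 in WT and 10% to 53.3% in TetTKO, and in Dub1a the cluster at 8753 to 9105 bp holds 0% to 33.3% in WT and mostly higher values in TetTKO.

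Gene starts, taken as 1000 bp outside to 500 bp inside the start given by RefSeq, were methylated at the genes with low FPKM in WT. Gm12794 had 76.5% in WT and 68.2% in TetTKO (8 CpGs), Gm8994 70.7% and 70.2% (9 CpGs), Dub1 71.8% and 61.4% (7 CpGs) and Pramel7 81.1% and 80.4% (7 CpGs). Dub1a and Pramel6 had only 3 CpGs there and are not described. Pramef12 had 23.2% and 35.8% over 21 CpGs. For 24 of the 30 PRAME relatives a start could be placed. It could not be for the other 6, among them Pramef8, the relative with the most RNA, so they were not analysed here. Of the starts placed in the PRAME family, the 4 members included, 13 had at least 5 CpGs. The 11 with under 5 FPKM in WT held 41.7% to 89.8% in WT, median 75.9%, and 46.3% to 80.4% in TetTKO, median 68.0%. The 2 with more RNA were Pramef12 and Oog3 (46.3% and 50.2%), and Oog3 lay within the ranges of the 11. The split was not planned beforehand and used WT RNA for both libraries. Gm12794, with 10.18 FPKM in TetTKO, is therefore among the 11. No relation between RNA and methylation is read from these groups. This is a description of 13 related sequences that share libraries and, in part, reads.

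Coverage at the genes was set against that of their chromosomes, since copies can share or lose reads. Gm8994 held 27.8 listed CpGs per kb, 2.99 times the median of its chromosome, at 1.37 times the chromosome's median coverage in WT and 1.22 times in TetTKO. Dub1 lay at 0.805 and 0.833 times and Dub1a at 0.859 and 0.889 times, while the other 4 genes lay between 0.919 and 1.18 times. Low coverage at Dub1 and Dub1a and high coverage at Gm8994 stand beside their methylation values, and the part of multi-copy reads in these values was not tested. The intervals of the 7 genes had 7.10 to 16.5 reads per CpG.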

How the data were processed

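RNA-seq and whole-genome bisulfite sequencing (WGBS) were analysed for WT and TetTKO E14Tg2a cells, with 1 library of each kind per genotype and groups taken from the genotype labels. The genes and lists were chosen with earlier results of these data known. Per the labels' protocols, WGBS used 1 microgram of DNA with 0.5% lambda DNA, fragments of about 350 bp, 5 PCR cycles and read pairs of 110 bp, and RNA-seq used directional libraries depleted of ribosomal RNA and single reads of 50 bp. Trim Galore, Bismark 0.7.9, Bowtie and SAMtools (WGBS) and TopHat2 2.0.2 and Cufflinks 2.0.2 (RNA) with the mm9 build appear in the submitters' processing notes. No source used here gives the gene models or says how reads that fit several copies were treated.

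The deposited expression values are FPKM per gene, and the depth of the RNA libraries is unknown. The deposited methylation values are a fraction per CpG with the count of methylated and of all reads, at 5 or more reads in each library and a median coverage of 8 in WT and 10 in TetTKO. Bisulfite reads 5-hydroxymethylcytosine as methylated.

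Here, with Python 3.11.15, pandas 2.3.3, numpy 2.4.6 and SciPy 1.17.1, rows of the same symbol were summed, 1 FPKM was added before log2, and 6 RNA genes shorter than 300 bp were left out. Methylation was averaged over CpGs in gene intervals, 10 kb flanks, gene ends and 1 kb windows with at least 5 CpGs. Intervals are exact 95% binomial intervals for shares and Newcombe intervals for differences, and cover counting error only, since read calls of 1 fragment are not independent. RefSeq (GRCm38.p6) gave names, strand and promoter letters and no position on mm9. Genes outside the set were named if they were PRAME or USP17 relatives at 1 FPKM or more, 2-fold different or among the highest 3 of a list, the nearest neighbour, or among the 5 nearest in level, and others are said to be chosen after their values were seen. The calculations were tested on simulated data. Alternatives were other pseudocounts, filters, coverage minimums, flank lengths and centring on the own chromosome.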

Additional observations from a re-analysis of the deposited data

How the results depend on the processing

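Each group had 1 library, so leaving out a library was not possible, and no paired analysis was possible because the groups share fewer than 2 replicate numbers. The RNA depth is unknown, and 4 of the 7 genes lay under 1 FPKM in WT, where rounding and the added FPKM weigh most. Of 81 alternatives for expression 69 counted as unchanged. Some of these could not differ, since each of the 7 genes had 1 row and all passed the limit of expression. For log2 differences this meant the same direction and side of 2-fold, and for counts of genes only a similar number. The count of 4 of the 7 genes 2-fold higher was kept by this rule although it was 6 with 0.1 FPKM added. With 5 FPKM added it was 3. Of 188 alternatives for methylation 166 stayed within the counting error, of which 10 had the other sign. Some of these kept the same CpGs, such as the flanks of Gm12794, Gm8994 and Dub1 without CpGs inside other genes. Both totals therefore overstate how far the results were tried. With 0.1 FPKM added, Pramel6 reached 1.27 and Pramel7 1.53, the PRAME relatives a median of 2.14, and the USP17 relatives a median of 2.42 with 1 gene 2-fold higher. With 5 FPKM added, Dub1 stood at 0.34, the median of the 7 genes was 0.35, 0 PRAME relatives were 2-fold higher, and 7 of the other 2-cell-stage genes were, with a median of 0.64. That median was 0.81 with no filter on low values. Of the genes with 1 FPKM or more in WT, 2 were 2-fold higher.

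Centred on their chromosomes, the gene-body differences of Gm8994 (0.486 points), Gm12794 (1.59) and Dub1a (1.86) turned positive, the latter 2 within counting error, as did that of Dub1a (1.02) with pooled calls. For both flanks, Pramef12 turned positive when centred and, at 2.26, at a coverage of 10 or more. Dub1 had a gene-body difference of -41.7 points on the 1 CpG left at a coverage of 10 or more. At that coverage the flanks were at 4.11 (Gm12794, right), -1.80 (Gm8994, left), -4.77 (Gm8994, both), 12.3 (Dub1, left), 2.71 (Dub1, both), -4.87 (Dub1a, left), 11.6 (Dub1a, right) and -25.5 (Pramel7, right), on 2 to 8 CpGs outside Gm8994. Flanks of 5 kb gave 1.29 (Gm8994, left), -5.77 (Dub1a, left), -19.0 (Dub1a, right), -11.1 (Dub1a, both), -7.00 (Pramel6, right), -7.06 (Pramel6, both), 2.35 (Pramel7, left) and -4.01 (Pramel7, both). Flanks of 20 kb gave -7.26 (Dub1a, left) and -8.01 (Dub1a, both). Centring on the own chromosome gave -4.97 (Gm8994, both flanks) and -8.51 (Pramel6, both flanks). The shorter flank of Dub1a leaves out the CpG cluster. For the others, the cause was not tested. The Dub1a interval at a coverage of 10 had no CpG left and was not computed.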
